A study of Mus musculus with 80 samples.

Results

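The rows of the liver count table for 9 glutathione transferases were read: Gsta1, Gsta2, Gsta3 and Gsta4 of the alpha class, Gstt1, Gstt2 and Gstt3 of the theta class, and Gstp1 and Gstp2 of the pi class. They were picked by gene symbol from 22103 rows, and all 9 were in the table. The livers came from 20 female Balb-C mice aged 10 to 12 weeks. Each mouse was gavaged once a day for 7 days with vehicle (the control) or with PFESA-BP2 (Nafion byproduct 2, a fluorinated alkyl substance). The daily dose of PFESA-BP2 was 0.03, 0.3, 3.0 or 6.0 mg/kg, with 4 mice in each of the 5 groups. The labels name no genetic change, and they conflict on the vehicle: control titles name DMSO and the protocol names deionized water. The design compares each dose with the control and one dose with the next. All comparisons with the control use the same 4 control mice, so their results are not independent of each other.

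Glutathione transferases are mostly soluble enzymes that join the tripeptide glutathione to electrophilic compounds, which makes those compounds more water soluble and ready for export. Liver holds several classes of them, and many alpha, mu and pi class genes are induced by foreign compounds through the transcription factor NRF2, which binds antioxidant response elements, and through the xenobiotic receptors CAR, PXR and AhR. The mercapturate pathway then trims the conjugates, and ABC transporters carry them out of the cell.

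Library totals lay between 13086779 and 21467012 counts, and 15197 rows had enough counts to be tested. Levels are in CPM, the usual depth-scaled read count. Below, rose and fell stand for an adjusted p under 0.05 over all tested rows in edgeR's quasi-likelihood test. In each group 1 of the 4 libraries stood apart on the main axis of variation within groups (libraries 3, 11, 15, 19 and 23, in each group the third by number), an axis that held 48.2% of that variation. Defining hepatocyte genes were abundant in every library: summed over 8 of them, the level was 81865 to 112657 CPM at 6.0 mg/kg-day and 124963 to 169742 CPM in controls, and 4 of the 8 fell while 1 rose, where 22.4% of all tested genes changed. Pericentral hepatocyte genes summed to 5130 to 7596 CPM at 6.0 mg/kg-day and 10012 to 12997 CPM in controls, and 6 of 8 fell while 1 rose (median log2 change -1.13). Periportal hepatocyte genes summed to 5108 to 7240 CPM at 6.0 mg/kg-day and 8556 to 10130 CPM in controls, and 6 of 8 fell (median -0.79). In such whole-liver samples, fewer cells of a type and less RNA per cell cannot be told apart. T and NK cell genes, 7 in all and none at 0 in every mouse of a group, summed to 2.86 to 125 CPM at 6.0 mg/kg-day, where library 22 held the top value, and to 2.91 to 6.52 CPM in controls. Neutrophil and monocyte genes, also 7 with none at 0, summed to 8.76 to 29.6 CPM at 6.0 mg/kg-day and 5.13 to 6.56 CPM in controls. The part of these cell types in the levels below was not tested.

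At 6.0 mg/kg-day, 8 of the 9 glutathione transferases rose over the control and none fell, where 22.4% of all tested genes changed and 11.2% rose. The increases ran from 1.74-fold for Gstt2 to 26.8-fold for Gsta1, and Gstp2 did not pass. At 3.0 mg/kg-day, Gsta1, Gsta2, Gstt3 and Gstp1 rose, which is 4 of 9 where 4.61% of all genes changed and 3.18% rose. At 0.3 mg/kg-day, Gstt3 alone among the 9 rose, where 0.29% of all genes changed and 0.138% rose. At 0.03 mg/kg-day none of the 9 passed, and neither did any of the 15197 genes (0%) in edgeR's quasi-likelihood test. At an unadjusted p under 0.05, 565 genes and 2 of the 9 (Gsta2 and Gstt3) were past the threshold at 0.03 mg/kg-day, and DESeq2 called 11 genes with none of the 9 among them. Groups did not overlap and the dosed mice were higher for 8 of the 9 at 6.0 mg/kg-day, against 9.68% of all genes, and for 6 of the 9 at 3.0 mg/kg-day, against 5.55% of all genes. The median log2 change of the 9 was 1.61 at 6.0 mg/kg-day against -0.02 for all tested genes, and 0.69 at 3.0 mg/kg-day against -0.02 for all.

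**Figure D1:**
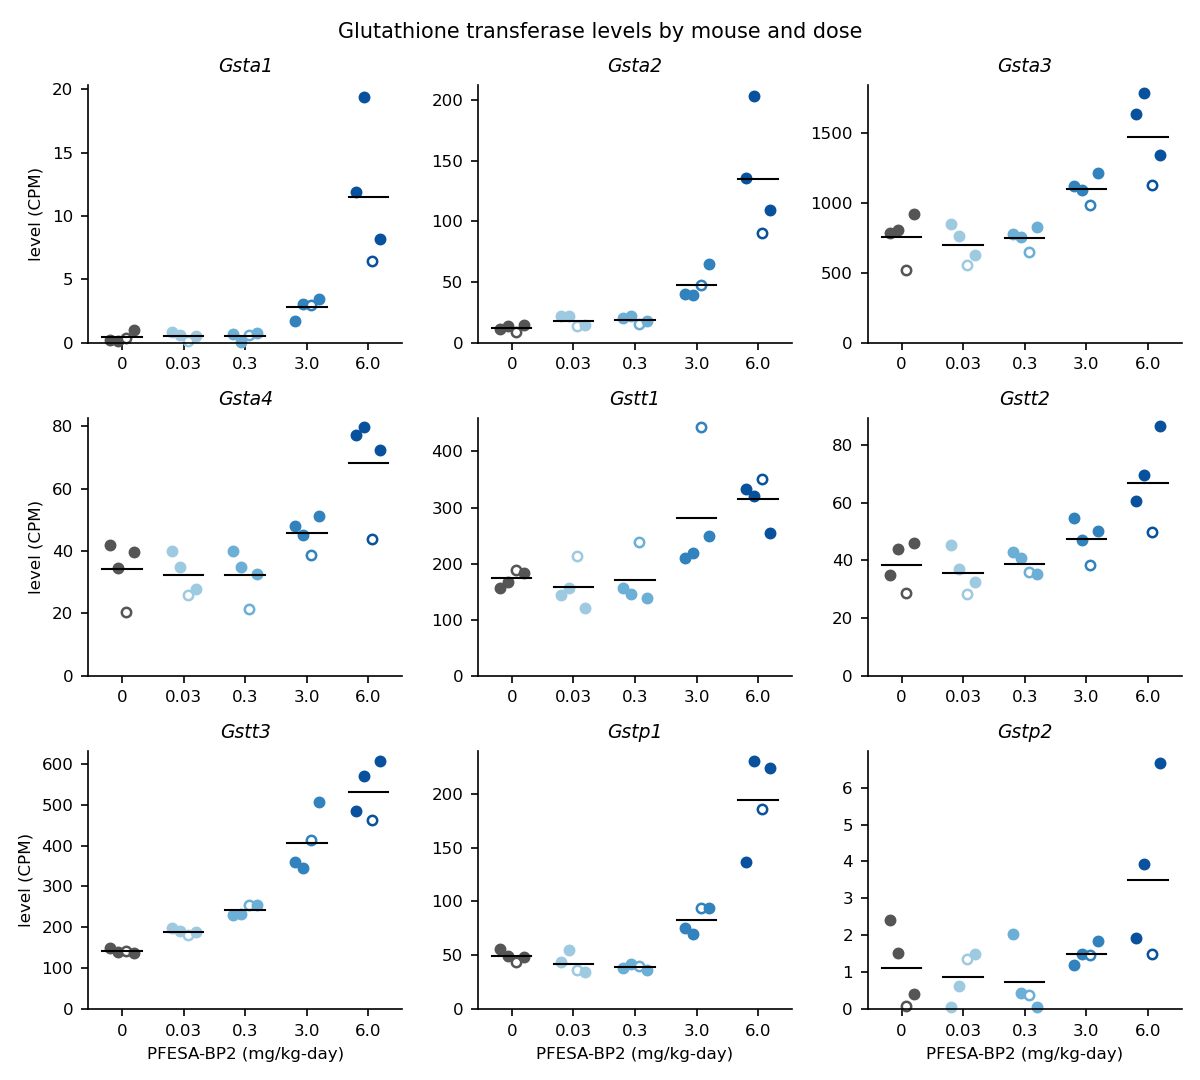
Level of each gene in CPM (vertical axes, linear, each from 0) by dose of PFESA-BP2 in mg/kg-day (0 is the control), with 1 point per mouse and a line at the mean of 4 mice. Open points are the 5 libraries that stand apart. Gstt3 means run in dose order (141.8 CPM in controls and 531 CPM at 6.0 mg/kg-day), while Gsta1 means stay under 1 CPM below 3.0 mg/kg-day.

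Summed over the 9 genes, the level was 1211 ± 185 CPM in controls, 1178 ± 149 CPM at 0.03, 1297 ± 39.7 CPM at 0.3, 2019 ± 168 CPM at 3.0 and 2799.9 ± 400.1 CPM at 6.0 mg/kg-day (SD, n = 4 each). The lowest mouse at 3.0 mg/kg-day, at 1861 CPM, was above the highest control at 1395 CPM. Gsta3 made up 52.4% of this sum at 6.0 mg/kg-day and 62.1% in controls. Gstt3 made up 19.1% at 6.0 mg/kg-day and 11.9% in controls, and Gsta2 4.71% at 6.0 mg/kg-day and 0.997% in controls.

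Levels of different genes were compared per kilobase of annotated exon. At 6.0 mg/kg-day the order was Gsta3 (339 CPM per kb), Gstt1 (206), Gstt3 (138), Gstp1 (125), Gsta2 (114), Gsta4 (54.0), Gstt2 (16.0), Gsta1 (12.0) and Gstp2 (3.15), all in CPM per kb of exon. In controls it was Gsta3 (175 CPM per kb), Gstt1 (114), Gstt3 (36.9), Gstp1 (31.9), Gsta4 (27.0), Gsta2 (10.3), Gstt2 (9.22), Gstp2 (0.991) and Gsta1 (0.445). Gsta2 thus stood above Gsta4 at 6.0 mg/kg-day and below it in controls. Mice overlapped between the neighbours Gstt3 and Gstp1, Gstp1 and Gsta2, and Gstt2 and Gsta1 at 6.0 mg/kg-day. In controls they overlapped between Gsta3 and Gstt1, Gstt3 and Gstp1, Gstp1 and Gsta4, Gsta2 and Gstt2, and Gstp2 and Gsta1. Per kilobase of coding sequence Gstt3 stood above Gstt1 at 6.0 mg/kg-day, at 735 and 438 CPM per kb, so the order of these theta genes depends on the length used.

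**Figure D2:**
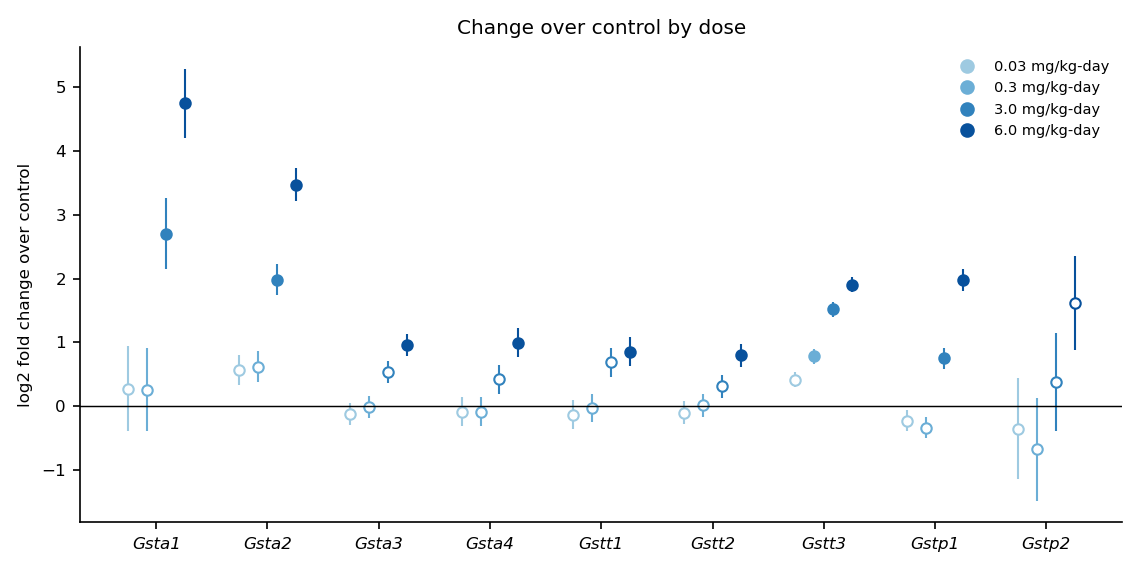
Log2 fold change over the control (vertical axis) for each gene at the 4 doses of PFESA-BP2 in mg/kg-day, with bars of 1 SE. Filled points have an adjusted p under 0.05 in edgeR's quasi-likelihood test: 1 at 0.3, 4 at 3.0 and 8 at 6.0 mg/kg-day.

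Of the alpha class, Gsta1, Gsta2 and Gsta4 lie in a cluster on chromosome 9 and Gsta3 on chromosome 1. In the GENCODE M21 annotation of GRCm38, Gsta1 spans chr9:78230656-78242684 on the plus strand, Gsta2 chr9:78331018-78355788 on the minus strand and Gsta4 chr9:78182774-78209349 on the plus strand, while Gsta3 spans chr1:21240589-21265661 on the plus strand. Gsta1 and Gsta2 encode alpha enzymes known in mice for a low resting level in liver and strong induction by phenolic antioxidants. Their coding sequences are 98.0% identical, and a further gene of the cluster, Gm3776 (chr9:78257129-78269166, plus strand, annotated as protein coding), is 99.7% identical to Gsta1. Of the 50-base windows in Gsta1 transcripts, 90.5% also occur in a transcript of another gene, mainly Gm3776 (75.7%) and Gsta2 (46.6%), against 49.8% for Gsta2 and 0.273% for Gsta3. Gsta4 shares none. Reads from the copies could therefore be split between rows by the authors' counting, and the rows of Gsta1 and Gsta2 are uncertain as separate genes.

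The start regions of the near-identical copies are shown because their letters are so alike, with that of Gsta3 beside them. Gm10639 is a further copy of the cluster. Each runs from 250 bases before the RefSeq start to 20 bases after it, read 5′ to 3′ on the gene's strand (RefSeq, build GRCm38.p6), and capitals mark a motif match. The regions are chr9:78230419-78230688 (plus) for Gsta1, chr9:78256879-78257148 (plus) for Gm3776, chr9:78289678-78289947 (plus) for Gm10639, chr9:78347126-78347395 (minus) for Gsta2 and chr1:21240335-21240604 (plus) for Gsta3.
Gsta1: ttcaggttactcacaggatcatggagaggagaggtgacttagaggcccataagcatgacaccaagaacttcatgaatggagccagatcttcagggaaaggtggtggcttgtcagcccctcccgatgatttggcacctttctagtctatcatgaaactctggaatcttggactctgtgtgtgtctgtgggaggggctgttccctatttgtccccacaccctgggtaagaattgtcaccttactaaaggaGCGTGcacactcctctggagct
Gm3776: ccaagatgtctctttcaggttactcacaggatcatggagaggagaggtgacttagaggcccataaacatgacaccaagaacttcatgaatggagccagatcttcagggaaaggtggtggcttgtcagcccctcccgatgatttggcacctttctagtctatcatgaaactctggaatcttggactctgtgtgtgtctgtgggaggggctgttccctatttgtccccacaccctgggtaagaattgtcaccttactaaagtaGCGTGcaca
Gm10639: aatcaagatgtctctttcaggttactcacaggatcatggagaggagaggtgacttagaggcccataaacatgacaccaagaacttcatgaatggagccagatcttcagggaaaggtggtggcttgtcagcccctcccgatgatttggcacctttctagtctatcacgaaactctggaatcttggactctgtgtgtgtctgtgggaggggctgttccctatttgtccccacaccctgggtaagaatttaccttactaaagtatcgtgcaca
Gsta2: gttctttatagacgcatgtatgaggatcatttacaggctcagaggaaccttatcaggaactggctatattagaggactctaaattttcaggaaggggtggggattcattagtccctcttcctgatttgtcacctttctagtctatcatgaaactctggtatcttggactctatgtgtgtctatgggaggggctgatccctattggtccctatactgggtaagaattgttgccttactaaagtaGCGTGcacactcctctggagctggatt
Gsta3: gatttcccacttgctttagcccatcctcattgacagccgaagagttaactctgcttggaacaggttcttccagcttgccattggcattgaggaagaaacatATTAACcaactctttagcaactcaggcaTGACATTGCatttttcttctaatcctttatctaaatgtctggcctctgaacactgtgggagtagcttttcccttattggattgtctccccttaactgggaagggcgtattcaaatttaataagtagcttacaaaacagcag

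Both strands of 300-base windows around the RefSeq starts were searched for 4 motifs: the core of the antioxidant response element (TGACNNNGC), the core of the xenobiotic response element bound by AhR (GCGTG), a nuclear receptor half-site (AGGTCA) and an HNF1 half-site (GTTAAT). Of the 9 genes, 7 had a window in the table, and Gsta4 and Gstt2 did not. The capitals in Gsta1, Gm3776 and Gsta2 are GCGTG, which 32.4% of all 32851 windows hold, and it begins 2 bases before the Gsta1 start, 12 bases into the Gm3776 transcript and 7 bases before the Gsta2 start. The Gm10639 window, 98.7% identical to that of Gm3776, held none of the 4 motifs. The capitals in Gsta3 are an antioxidant response element core beginning 121 bases before the start, a motif held by 12.4% of all windows, and an HNF1 half-site on the opposite strand beginning 149 bases before it, held by 7.1%. AGGTCA, held by 16.3% of all windows, was in none of the 7. Gsta1 and Gm3776 windows were 99.0% identical over their aligned bases, and Gsta1 and Gsta2 windows 80.3%. A match is a stretch of letters and not evidence of binding, and an absent match speaks only for these letters in this window.

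Gsta2 rose at 3.0 and at 6.0 mg/kg-day. Its level was 11.4, 13.7, 9.09 and 14.3 CPM in controls, 22.0, 21.6, 13.7 and 14.9 CPM at 0.03, 20.1, 21.9, 15.0 and 17.7 CPM at 0.3, 40.0, 38.9, 47.9 and 64.7 CPM at 3.0, and 135.5, 203, 90.4 and 109.8 CPM at 6.0 mg/kg-day. All mice of the 3 upper doses were above all controls, and those at 0.03 mg/kg-day overlapped them. The log2 change over control was 3.47 ± 0.26 (SE) at 6.0 mg/kg-day, an 11.1-fold increase (adjusted p = 1.05e-08), and 1.98 ± 0.24 at 3.0 mg/kg-day (adjusted p = 2.53e-05). At 0.3 mg/kg-day it was 0.62 ± 0.24, which did not pass (adjusted p = 0.416). Separation of all 4 mice upward from the controls was seen for 2 of the 9 genes at 0.3 mg/kg-day, against 3.71% of all genes.

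Gsta1 was close to the detection limit in the lower groups. Its level was 0.247, 0.113, 0.373 and 0.971 CPM in controls, 0.835, 0.621, 0.151 and 0.495 CPM at 0.03, 0.693, 0.0481, 0.578 and 0.737 CPM at 0.3, 1.73, 3.08, 2.97 and 3.41 CPM at 3.0, and 11.9, 19.4, 6.45 and 8.21 CPM at 6.0 mg/kg-day. Mice at 3.0 and at 6.0 mg/kg-day did not overlap the controls or each other. The log2 change was 4.74 ± 0.55 (SE) at 6.0 mg/kg-day (adjusted p = 2.49e-06) and 2.71 ± 0.56 at 3.0 mg/kg-day (adjusted p = 0.00509). Control counts were few, and 1 mouse shifted the size: without control library 4 the log2 change was 5.57 at 6.0 and 3.53 at 3.0 mg/kg-day. At 0.03 and 0.3 mg/kg-day the log2 differences of 0.28 and 0.26 did not pass. Of the 12 control, 0.03 and 0.3 mg/kg-day libraries, 6 reached the level of 0.55 CPM that the filter used, so the gene did not enter the test through the upper doses alone.

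Gm3776 rose as well. It had 0.79, 0.675, 0 and 0.343 CPM in controls, 9.65, 21.5, 13.6 and 32.1 CPM at 3.0 and 106.9, 219, 68.4 and 103.8 CPM at 6.0 mg/kg-day. Every mouse at 3.0 and at 6.0 mg/kg-day was above every control, and Gm3776 rose by 7.99 ± 0.72 (log2, SE) at 6.0 mg/kg-day (adjusted p = 1.13e-07), a size that rests on near-empty controls. Gm10639 had 8.64, 18.2, 8.12 and 9.25 CPM at 6.0 mg/kg-day and 0, 0.281, 0.149 and 0.457 CPM in controls. No control reached the 0.55 CPM of the filter, so the Gm10639 row entered the test through its upper doses and its fitted change is not given. Within the sum of Gsta1, Gsta2, Gm3776 and Gm10639, the row of Gm3776 took 43.2% ± 3.78 at 6.0 mg/kg-day and 3.26% ± 2.78 in controls, and the row of Gsta2 took 48.8% ± 3.72 at 6.0 mg/kg-day and 92.0% ± 2.33 in controls (SD, n = 4 each).

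The sum of these 4 copies does not depend on how reads were split among them. It was 13.2 ± 2.86 CPM in controls, 20.0 ± 4.75 CPM at 0.03, 20.5 ± 3.71 CPM at 0.3, 72.0 ± 22.4 CPM at 3.0 and 282 ± 124 CPM at 6.0 mg/kg-day (SD, n = 4 each). In the same edgeR fit with the rows replaced by their sum, the log2 change over control was 4.41 at 6.0 mg/kg-day (adjusted p = 3.86e-09) and 2.44 at 3.0 mg/kg-day (adjusted p = 9.94e-06). At 0.3 and 0.03 mg/kg-day it was 0.63 and 0.59, and neither passed (adjusted p = 0.497 at 0.3 and 1.0 at 0.03). Library 22 held the highest level of its group for Gsta1, Gsta2, Gm3776 and Gm10639. The same was so for Gsta3, Gsta4 and Gstp1, but not for Gstp2 or the theta genes. Library 22 also held the highest T and NK cell sum and the highest neutrophil and monocyte sum of its group. Without library 22 the log2 change of Gsta2 at 6.0 mg/kg-day was 3.20 (adjusted p = 1.502e-08) and that of Gsta1 4.37.

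**Figure D3:**
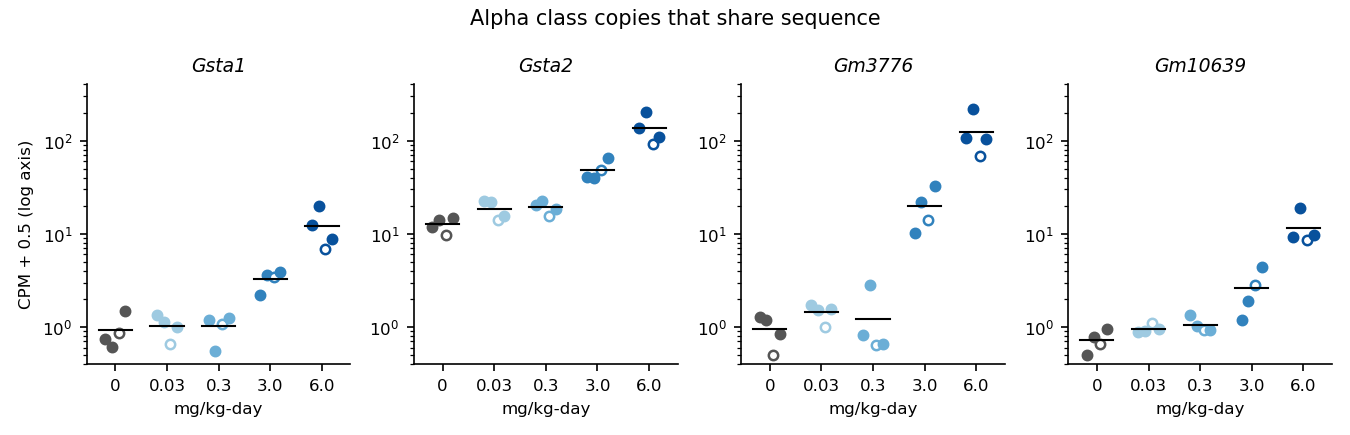
Level plus 0.5 CPM on a log axis for the 4 alpha copies that share sequence, by dose in mg/kg-day (0 is the control), with 1 point per mouse, a line at the mean of 4 mice and open points for the libraries that stand apart. At 6.0 mg/kg-day Gm3776 made up 43.2% and Gsta2 48.8% of the sum of the 4, and in controls Gsta2 made up 92.0%.

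Gsta3 and Gsta4 had smaller increases on higher starting levels. Gsta3, a constitutive alpha enzyme of mouse liver known for detoxifying aflatoxin epoxide, had 1639, 1788, 1129 and 1343 CPM at 6.0 mg/kg-day and 784.8, 808, 522 and 924 CPM in controls. All mice at 6.0 mg/kg-day exceeded all controls, and Gsta3 rose by 0.96 ± 0.18 on the log2 scale (SE, adjusted p = 0.00049), a 1.94-fold increase. At 3.0 mg/kg-day its mean was 1104 ± 94.7 CPM, against 759.8 ± 170 CPM in controls (SD, n = 4 each). Those groups did not overlap either, but the log2 change of 0.54 missed the threshold (adjusted p = 0.0994). With a term for the libraries that stand apart the same comparison passed (log2 0.56, adjusted p = 0.0021). That term, used here and below, was drawn from the spread within groups of these same data. Adjusted p-values with it may therefore be too small.

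Gsta4 conjugates hydroxynonenal, a product of lipid peroxidation. It had 77.2, 79.8, 44.0 and 72.3 CPM at 6.0 mg/kg-day and 41.8, 34.7, 20.4 and 39.7 CPM in controls. The groups did not overlap, and the lowest mouse in each was the library that stands apart. Gsta4 rose by 1.00 ± 0.23 on the log2 scale at 6.0 mg/kg-day (adjusted p = 0.00313). At 3.0 mg/kg-day its log2 difference was 0.42 and did not pass (adjusted p = 0.437). At 0.03 and 0.3 mg/kg-day Gsta3 and Gsta4 lay within 0.12 of the control on the log2 scale, and neither passed.

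The theta genes lie together on chromosome 10, all on the minus strand: Gstt3 at chr10:75774115-75781414, Gstt1 at chr10:75783813-75798584 and Gstt2 at chr10:75831114-75837424 (GENCODE M21, GRCm38). Gstt1 and Gstt3 coding sequences are 76.2% identical, and Gstt1 transcripts share no 50-base window with another gene. Gstt3 shares 12.5% of its windows, mostly with the overlapping locus Gm20441, whose own level was at most 1.27 CPM in any library. Promoter windows of Gstt1 and Gstt3 held none of the 4 motifs.

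Gstt3 rose at the 3 upper doses and was the only one of the 9 to pass at 0.3 mg/kg-day. Its level was 149, 139, 142 and 138 CPM in controls, 198, 191, 181 and 188 CPM at 0.03, 231, 234, 254 and 255 CPM at 0.3, 359.5, 344, 413 and 507 CPM at 3.0, and 484, 571, 462 and 608 CPM at 6.0 mg/kg-day. Every dosed mouse was above every control, and among the dosed groups mice overlapped between the upper pair of doses alone. The log2 change over control was 1.91 ± 0.12 (SE) at 6.0 mg/kg-day (adjusted p = 1.95e-09), 1.52 ± 0.12 at 3.0 mg/kg-day (adjusted p = 1.77e-07) and 0.78 ± 0.12 at 0.3 mg/kg-day (adjusted p = 0.00386). The last is a 1.72-fold increase, and it held with each mouse left out in turn (log2 0.76 to 0.81, adjusted p at most 0.0234).

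At 0.03 mg/kg-day Gstt3 averaged 189.5 ± 7.00 CPM, against 141.8 ± 4.92 CPM in controls (SD, n = 4 each). The log2 difference was 0.42 ± 0.12 (SE), with an unadjusted edgeR p of 0.00215 and an adjusted p of 0.898 over all genes. Of the 9 genes it alone had no overlap with the controls at this dose, against 1.88% of all genes that were higher without overlap. The adjusted p was 0.306 with a term for the libraries that stand apart and 0.322 in DESeq2, so no setting called it.

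Gstt1, which dehalogenates small halogenated alkanes, had 333.5, 321, 351 and 255.5 CPM at 6.0 mg/kg-day and 157, 168, 188.5 and 183 CPM in controls. The groups did not overlap, and Gstt1 rose by 0.86 ± 0.22 on the log2 scale (SE, adjusted p = 0.00878). At 3.0 mg/kg-day it had 211, 218, 444 and 249.9 CPM, with the library that stands apart, 19, far above the other 3. Its log2 difference from control at 3.0 mg/kg-day was 0.69 (adjusted p = 0.0958), and without library 19 it was 0.38. With a term for the libraries that stand apart it was 0.63 and passed (adjusted p = 0.00342). At 0.03 and 0.3 mg/kg-day the differences were -0.13 and -0.03, and neither passed.

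Gstt2, which in rat and human acts on an aryl sulfate ester, averaged 66.7 ± 15.5 CPM at 6.0 mg/kg-day and 38.3 ± 8.04 CPM in controls (SD, n = 4 each). The lowest mouse at 6.0 mg/kg-day was at 49.8 CPM and the highest control at 46.0 CPM, so the groups were close but did not overlap. Gstt2 rose by 0.80 ± 0.18 on the log2 scale (SE, adjusted p = 0.00308). At the 3 lower doses its mean was 35.8 to 47.6 CPM, with log2 differences of -0.10 at 0.03, 0.02 at 0.3 and 0.31 at 3.0 mg/kg-day, and none passed.

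The pi genes lie next to each other on chromosome 19, on the minus strand: Gstp1 at chr19:4035407-4037985 and Gstp2 at chr19:4040285-4046023 (GENCODE M21, GRCm38). Their coding sequences are 98.1% identical. Gstp1 shares 33.7% of its 50-base windows with other genes, and Gstp2 54.3%, most of them (49.1%) with Gstp1. The start regions of both are shown because the coding sequences are so alike while the levels differ: chr19:4037893-4038162 (minus) for Gstp1 and chr19:4042202-4042471 (minus) for Gstp2, from RefSeq, build GRCm38.p6, in the same layout as above.
Gstp1: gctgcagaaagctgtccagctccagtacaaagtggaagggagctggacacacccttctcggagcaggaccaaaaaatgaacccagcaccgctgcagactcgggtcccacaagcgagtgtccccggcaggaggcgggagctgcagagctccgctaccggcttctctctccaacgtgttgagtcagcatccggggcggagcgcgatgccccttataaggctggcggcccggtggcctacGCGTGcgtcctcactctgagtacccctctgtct
Gstp2: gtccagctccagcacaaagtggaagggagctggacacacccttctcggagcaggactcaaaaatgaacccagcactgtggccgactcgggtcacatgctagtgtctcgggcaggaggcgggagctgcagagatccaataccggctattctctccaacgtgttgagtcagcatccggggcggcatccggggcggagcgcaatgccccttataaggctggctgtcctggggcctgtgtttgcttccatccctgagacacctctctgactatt

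These windows were 86.2% identical over their aligned bases. The capitals in Gstp1 are GCGTG beginning 13 bases before the start, and the Gstp2 window held none of the 4 motifs.

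Gstp1 encodes the main pi enzyme, which in mice is more abundant in male than in female liver. Its level was 56.3, 49.2, 43.9 and 48.0 CPM in controls, 43.4, 54.9, 35.9 and 34.5 CPM at 0.03, 38.6, 41.6, 39.8 and 36.1 CPM at 0.3, 75.2, 69.9, 94.0 and 93.6 CPM at 3.0, and 137, 230.1, 186 and 224 CPM at 6.0 mg/kg-day. Both upper groups were above all controls and did not overlap each other, while all 4 mice at 0.3 mg/kg-day were below all controls. The log2 change over control was 1.98 ± 0.17 (SE) at 6.0 mg/kg-day, a 3.93-fold increase (adjusted p = 7.06e-08), and 0.75 ± 0.17 at 3.0 mg/kg-day (adjusted p = 0.00778). The log2 difference of -0.34 ± 0.17 at 0.3 mg/kg-day did not pass (adjusted p = 0.593), and 2.97% of all genes were lower without overlap there. At 0.03 mg/kg-day the difference was -0.23 and did not pass either.

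Gstp2, a near copy with low activity on the usual test substrates in mouse, had 1.93, 3.93, 1.498 and 6.67 CPM at 6.0 mg/kg-day and 2.42, 1.52, 0.0745 and 0.40 CPM in controls. The groups overlapped, and the log2 difference of 1.61, with an approximate 95% interval of 0.05 to 3.18, did not pass (adjusted p = 0.125). Its deposited values ran from 0.655 to 121.4 counts, and none of 20 was within 0.02 of a whole number, which also holds for Gstp1. At the 3 lower doses its log2 differences were -0.35 at 0.03, -0.67 at 0.3 and 0.38 at 3.0 mg/kg-day, and none passed.

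A processed pseudogene of the class on chromosome 1, Gstp-ps, had a row with more counts than the rows of both genes. Of its 50-base windows, 71.1% also occur in Gstp2 and 60.5% in Gstp1, so how reads were split among these rows is uncertain and the row is not a measure of the pseudogene alone. The row averaged 548 ± 128 CPM at 6.0 mg/kg-day and 113 ± 11.1 CPM in controls (SD, n = 4 each), and rose by 2.28 ± 0.21 on the log2 scale (SE, adjusted p = 2.03e-07). Its share of the sum of Gstp1, Gstp2 and Gstp-ps was 73.4% ± 2.67 at 6.0 mg/kg-day and 69.1% ± 1.61 in controls. Gstp3, a further pi gene whose coding sequence is 74.3% identical to Gstp1, rose by 0.54 ± 0.19 on the log2 scale (adjusted p = 0.0452). Its groups overlapped, at 11.87 to 21.87 CPM at 6.0 mg/kg-day and 8.42 to 15.95 CPM in controls. Summed over Gstp1, Gstp2 and Gstp3 the level was 215 ± 46.9 CPM at 6.0 mg/kg-day and 62.4 ± 9.27 CPM in controls, with a log2 change of 1.79 at 6.0 (adjusted p = 1.13e-07) and 0.68 at 3.0 mg/kg-day (adjusted p = 0.011). The sum at 3.0 mg/kg-day missed the threshold without library 20 (log2 0.63, adjusted p = 0.0522). It leaves out Gstp-ps, while Gstp3 shares no 50-base window with another gene. With Gstp-ps added, an alternative chosen after seeing the data, the sum was 763.5 ± 166 CPM at 6.0 mg/kg-day and 175.1 ± 19.3 CPM in controls. In edgeR its log2 change was 2.12 at 6.0 (adjusted p = 6.99e-08) and 0.91 at 3.0 mg/kg-day (adjusted p = 0.00293).

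Whether members of a class responded to different degrees at 6.0 mg/kg-day was tested on the log2 ratio of 2 genes in each mouse (CPM plus 0.5), with a two-sided exact permutation test of 4 against 4 mice over 10 pairs. That design cannot give a p below 0.0286, which is an adjusted p of 0.0476 for the 6 pairs that reached it. Gsta2 gained 2.41 on the log2 scale over Gsta3 and 2.37 over Gsta4, and Gsta1 gained 2.69 over Gsta3 and 2.65 over Gsta4 (exact p = 0.0286 each). The sizes for Gsta1 turned on the pseudocount: with 0.1 CPM added they were 3.63 and 3.58, and with 2 CPM added 1.43 and 1.42, each with the same exact p. Gstt3 gained over both other theta genes: the ratio of Gstt1 to Gstt3 fell by 1.05 and that of Gstt2 to Gstt3 by 1.11 on the log2 scale (exact p = 0.0286 each).

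For 4 pairs no difference passed with 0.5 CPM added. The ratio of Gsta3 to Gsta4 was 4.44 ± 0.19 at 6.0 mg/kg-day and 4.48 ± 0.183 in controls on the log2 scale (SD, n = 4 each, exact adjusted p = 0.825). The ratio of Gstt1 to Gstt2 was 2.25 ± 0.526 at 6.0 mg/kg-day and 2.19 ± 0.35 in controls (exact adjusted p = 0.857). The other 2 pairs, Gsta1 with Gsta2 and Gstp1 with Gstp2, also hold a gene near 0 in controls and turned on the pseudocount. The ratio of Gsta1 to Gsta2 differed by 0.28 with 0.5, -0.83 with 2 and 1.18 with 0.1 CPM added. That of Gstp1 to Gstp2 differed by 0.53 with 0.5, 1.11 with 2 and -0.04 with 0.1 CPM added. With 2 CPM added both pairs passed (exact adjusted p = 0.0357 each), so their calls too depend on the pseudocount.

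**Figure D4:**
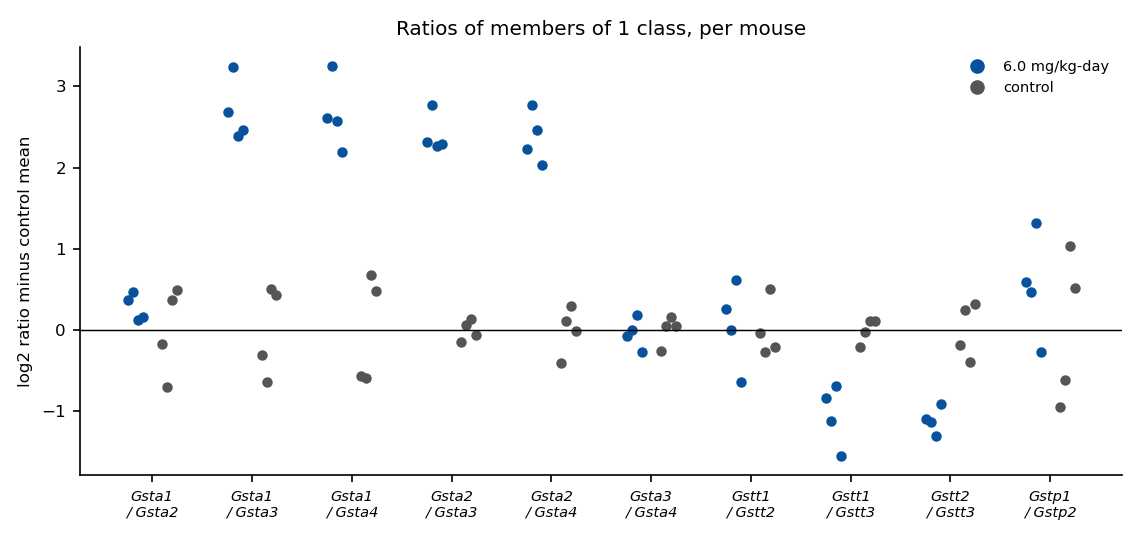
Log2 ratio of 2 genes of 1 class in each mouse minus the control mean of that ratio (vertical axis), for the 10 pairs, with mice at 6.0 mg/kg-day to the left of controls (4 each). The 4 pairs of Gsta1 or Gsta2 with Gsta3 or Gsta4 lie above the controls in every mouse at 6.0 mg/kg-day, and both ratios to Gstt3 lie below them.

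Each dose was also set against the next lower one. At 6.0 over 3.0 mg/kg-day, Gsta1 (log2 2.04), Gsta2 (1.49) and Gstp1 (1.22) rose, 3 of 9 where 2.09% of all genes changed and 1.03% rose (adjusted p = 0.017, 0.00286 and 0.00091 in that order). Gstt3 differed by 0.39 on the log2 scale between these doses and did not pass (adjusted p = 0.0984). Gsta3 (0.42), Gsta4 (0.58), Gstt1 (0.17), Gstt2 (0.49) and Gstp2 (1.23) did not pass either. The call of Gsta1 was lost without library 17, 18 or 22, with log2 changes of 1.87, 2.09 and 1.66. All 3 calls were lost in a fit of these 2 groups alone. At 3.0 over 0.3 mg/kg-day, Gsta1 (log2 2.44), Gsta2 (1.36), Gstt3 (0.74) and Gstp1 (1.09) rose, 4 of 9 where 3.28% of all genes changed and 2.41% rose. Gsta3 (0.55), Gsta4 (0.50), Gstt1 (0.72), Gstt2 (0.29) and Gstp2 (1.05) did not pass. At 0.3 over 0.03 mg/kg-day none of the 9 passed and 0.0197% of all genes did. Gstt3, with a log2 difference of 0.36 ± 0.12 (SE) and an adjusted p of 1.0, had an unadjusted edgeR p of 0.00622, and it was the 1 gene of the 9 at an unadjusted p under 0.05 there, among 510 of all genes. The other 8 had log2 differences of -0.32 (Gstp2) to 0.12 (Gstt2) between these doses.

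Over the rank of the 5 doses, 8 of 9 genes had a rising slope, where 26.4% of all genes had a slope that passed and 13.7% rose. The slope was 1.37 log2 units per dose step for Gsta1, 0.85 for Gsta2, 0.50 for Gstp1, 0.49 for Gstt3 and 0.20 to 0.25 for Gsta3, Gsta4, Gstt1 and Gstt2. The slope of Gstp2 was 0.43 and did not pass (adjusted p = 0.0528). It passed in limma-voom (0.67, adjusted p = 0.0226), with a term for the libraries that stand apart (0.43, adjusted p = 0.0299) and in the dosed groups alone (0.72, adjusted p = 0.0122). Shares of all genes with a slope that passed in those fits are not given here. With each mouse left out the adjusted p of Gstp2 was 0.0104 to 0.23, and it passed without library 1, 2, 16 or 23.

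For 4 of the 9 genes the library that stands apart differed in the same direction in every group. Gstt1 was higher in that library than the mean of the other 3 in 5 of 5 groups, by 0.15 to 0.97 on the log2 scale. Gsta3, Gsta4 and Gstt2 were lower in it in 5 of 5 groups, by 0.22 to 0.68, 0.31 to 0.91 and 0.14 to 0.53. Gstt3 differed by -0.26 to 0.08 and Gstp1 by -0.30 to 0.24, with both signs among the groups. The libraries that stand apart were picked on an axis drawn from all tested rows, these 9 genes included. A shared direction thus follows in part from that choice, and the share of all genes that have one was not counted. What sets these libraries apart was not tested. With these libraries left out, 8 of 9 genes rose at 6.0 mg/kg-day and 1 at 0.3 mg/kg-day, the same counts as with them in. At 3.0 mg/kg-day 6 passed, against 4 with them in. The share of all genes called without these libraries is not given here.

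**Figure D5:**
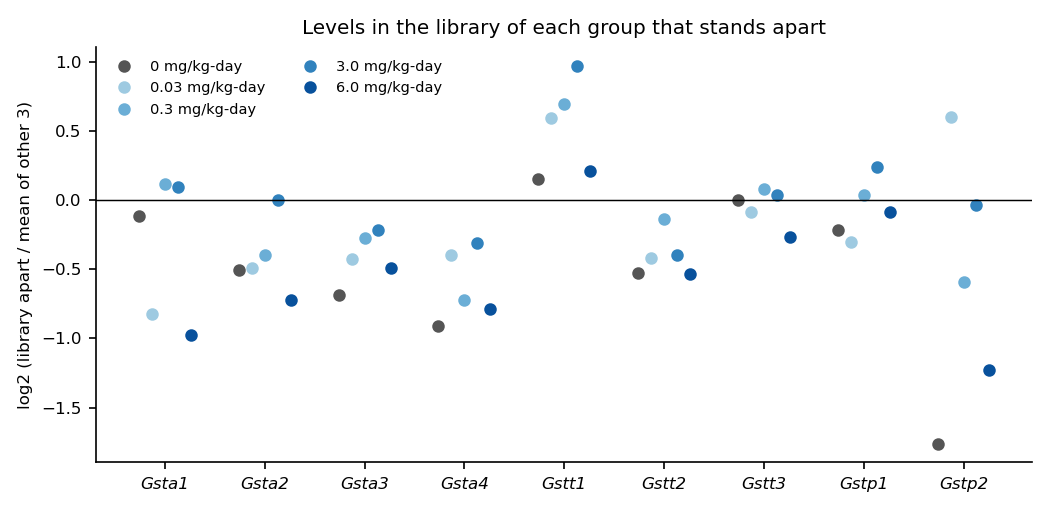
Log2 level of each gene in the library that stands apart over the mean of the other 3 libraries of its group (vertical axis), with 1 point per dose group. All 5 points lie above 0 for Gstt1 and below 0 for Gsta3, Gsta4 and Gstt2.

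Other genes of glutathione conjugation were read from lists of pathway members, to be set against the 22.4% of all genes that changed and the 11.2% that rose at 6.0 mg/kg-day. At 6.0 mg/kg-day the 15 tested transferases of other classes had a median log2 change of 0.51, against -0.02 for all genes. Of the 15, 7 rose and 1 fell there, and 6 rose at 3.0 mg/kg-day, where 3.18% of all genes rose. The mu genes led them: Gstm3 rose by 6.40 ± 0.35 and Gstm2 by 3.28 ± 0.20 on the log2 scale at 6.0 mg/kg-day (adjusted p = 4.98e-10 and 1.11e-09). None of the 15 passed at 0.3 mg/kg-day, where 0.29% of all genes changed and 0.138% rose. Gstm3 differed there by 1.23 on the log2 scale (adjusted p = 0.0842).

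Glutathione synthesis and recycling had 13 tested genes, whose median log2 change at 6.0 mg/kg-day was 0.38, with 5 that rose and 1 that fell. Gsr, which regenerates reduced glutathione, averaged 143 ± 21.9 CPM at 6.0 mg/kg-day and 67.7 ± 4.86 CPM in controls (SD, n = 4 each; log2 1.08, adjusted p = 1.82e-06). Chac1, which degrades glutathione, fell by 3.27 on the log2 scale to 0.19 ± 0.123 CPM, against 1.92 ± 0.471 CPM in controls (adjusted p = 1.05e-05). Of 13 genes of conjugate export and mercapturate formation, 4 rose and 1 fell at 6.0 mg/kg-day, where 11.2% of all genes rose, with a median of -0.02 as over all genes. Abcc4, an efflux pump of organic anions, rose at 0.3 mg/kg-day already (log2 1.24, adjusted p = 0.0244) and by 2.69 at 6.0 mg/kg-day. Nat8, which acetylates cysteine conjugates, rose by 2.76 at 6.0 mg/kg-day, to 4.86 ± 2.57 CPM, against 0.709 ± 0.0721 CPM in controls.

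Genes known as targets of the regulators named above were counted in the same way. The share of all genes that rose was 0.138% at 0.3, 3.18% at 3.0 and 11.2% at 6.0 mg/kg-day. Of 14 tested NRF2 targets, 10 rose at 6.0, 5 at 3.0 and none at 0.3 mg/kg-day, and none fell, among them Srxn1 (log2 2.09 at 6.0 mg/kg-day) and Ugdh (2.71). Among 20 CAR and PXR genes, those that rose numbered 15 at 6.0, 15 at 3.0 and 5 at 0.3 mg/kg-day. Those that fell numbered 3 at 6.0, 1 at 3.0 and 1 at 0.3 mg/kg-day. At 0.3 mg/kg-day Cyp2b10 rose by 2.75 and Cyp2c55 by 3.43 on the log2 scale. For AhR, 6 targets were tested, and at 6.0 mg/kg-day 4 of them rose and 1 fell, while none passed at 3.0 mg/kg-day. Cyp1a1 averaged 44.8 ± 68.2 CPM at 6.0 mg/kg-day and 1.09 ± 0.338 CPM in controls (SD, n = 4 each), with an SD above its mean. Of 15 genes for regulators, 2 rose and 7 fell at 6.0 mg/kg-day, where 22.4% of all genes changed: Nr1i2, which encodes PXR, rose by 0.60, while Nr1i3, which encodes CAR, fell by 0.92 and Ppara by 1.07 on the log2 scale.

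The genes with dose profiles most like those of the 8 with a slope that passed (all but Gstp2) were found by the root mean square difference in log2(CPM + 0.5) over the 5 group means, each profile centred on its own mean, among 7562 genes with at least 10 CPM. For Gstt3 these were Serpinb1a (a difference of 0.0768 log2 units), Spsb4 (0.105) and Orm2 (0.107). For Gsta2 they were Gstm2 (0.162), Ces2a (0.232) and Top2a (0.25), and for Gstp1 2010003K11Rik (0.09), Inmt (0.145) and Gstp-ps (0.146). For Gsta1, after a locus known by a clone name alone, they were Gstm2 (0.233) and Top2a (0.235). Gsta1 means were 0.43 to 0.53 CPM below 3.0 mg/kg-day, so the 0.5 CPM added flattens its profile. Its fitted log2 change at 6.0 mg/kg-day was 4.74, against 3.28 for Gstm2 and 4.03 for Top2a. For Gsta4 the closest was Cbr1 (0.0229), for Gsta3 Slc35b1 (0.0266), for Gstt1 Gm4950 (0.0484) and for Gstt2 Slc25a20 (0.0218). The profiles rest on 5 means of 4 mice each.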

How the data were processed

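Liver RNA of individual mice was sequenced, with each library run over 4 lanes, and per the labels 80 lane samples make up the 20 libraries of the deposited table. The authors deposited expected counts, 1 column per library, of which 58% of the values were exactly whole, with no tolerance. Partek and GRCm38.p5 are listed, with no role given, per the submitters' processing notes. Not given in the sources used here: the read aligner, the counter and how reads shared by near-identical genes were assigned. All 20 columns were mapped to dose groups through their names and 0 columns of values were left unmapped.

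Expected counts were rounded to whole numbers. Rows were filtered with filterByExpr (minimum count 10), which left 15197 rows and took out 6906, and scaled by TMM. One fit of all 20 mice in edgeR 4.0.16 (R 4.3.3) with 15 residual degrees of freedom gave the quasi-likelihood tests, with Benjamini-Hochberg adjustment over all tested rows. A standard error is the log2 change divided by the root of its F value. Ratios within a class were tested by exact permutation over mice (scipy 1.17.1) on log2(CPM + 0.5). Coordinates came from GENCODE M21 and promoter windows from RefSeq.

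Totals were 13086779 to 21467012 counts. Gsta1 and Gstp2 had the fewest counts and reached the filter's level of 0.55 CPM in 14 of 20 libraries each, while the other 7 genes reached it in all 20. P-values measure the spread between mice within a group. The alternatives were DESeq2 1.42.0, limma-voom 3.58.1, RLE factors, no filter, a term for or removal of the libraries that stand apart, only the groups compared, other pseudocounts and each mouse left out. Of the tests, only the edgeR comparison of 6.0 mg/kg-day with the control was also run on simulated counts, and its outcome is not given here. All 9 genes are covered in every comparison given, by name or within a range. Up to 4 genes per pathway list are named by adjusted p at 6.0 mg/kg-day, and up to 3 genes per profile. The 9 genes, the lists and the libraries that stand apart were chosen with earlier results of these data known, and lists are given as counts and medians. The hepatocyte gene Tf was not used here.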

Additional observations from a re-analysis of the deposited data

Results flagged for a closer look

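Gstt1 at 3.0 mg/kg-day had 1 mouse far from the other 3 of its group. Library 19 was at 444.1 CPM, the next mouse at 249.9 CPM and the lowest at 210.8 CPM, so the gap to the nearest mouse was 0.832 of the whole range. It was the 1 such case among 45 combinations of gene and group, and chance gives about 1 in 20. Library 19 is also the library of its group that stands apart from the rest, and Gstt1 was higher in that library in all 5 groups. Its part in the level of Gstt1 was not tested.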

How the results depend on the processing

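The count of the 9 genes that passed was 0 at 0.03 and 1 at 0.3 mg/kg-day in every setting run, and 8 at 6.0 mg/kg-day with each mouse left out. With a term for the libraries that stand apart it was 7 at 3.0 mg/kg-day over control (4 in the main result), 7 at 6.0 over 3.0 (3) and 7 at 3.0 over 0.3 mg/kg-day (4). Without those libraries it was 8 at 6.0 over 3.0 and 7 at 3.0 over 0.3 mg/kg-day. Shares of all genes called in these settings are not given here, so the higher counts are not a result about the 9 genes. At 6.0 over 3.0 mg/kg-day the count of the 9 was 0 with only those groups in the fit. It was 2 to 6 with each mouse left out, the highest without library 23. The pi sum at 0.3 mg/kg-day was 0.0166 (log2) with Gstp-ps added, an alternative chosen after seeing the data, against -0.21, and at 3.0 mg/kg-day it was 0.61 to 0.78 with each mouse left out. At 3.0 in place of 6.0 mg/kg-day 0 of 10 ratios passed. The ratio of Gsta1 to Gsta2 was -0.0469 there and that of Gsta3 to Gsta4 0.10. Pairs at the smallest exact permutation p the design allows (0.0286) had an adjusted p of 0.0571 there and so missed the threshold. Among those pairs, Gsta2 gained 1.36 over Gsta3 and 1.47 over Gsta4, and the ratio of Gstt2 to Gstt3 fell by 1.18 (log2). With 2 CPM added the ratio of Gsta1 to Gsta2 was -0.83 and that of Gstp1 to Gstp2 1.11, and both passed (exact permutation test, adjusted p = 0.0357 each). With 0.1 CPM added the ratio of Gstp1 to Gstp2 was -0.0384. The cause of these changes was not tested. Log2 differences near 0 that did not pass also turned sign: Gsta3 at 0.3 mg/kg-day was 0.0154 in limma-voom and 0.00698 with the term, and Gstt2 at 0.3 mg/kg-day was -0.0581 without the libraries that stand apart. With each mouse left out, values at 0.03 mg/kg-day ran from -0.0438 to 1.10 for Gsta1, -0.27 to 0.0243 for Gsta4, -0.23 to 0.00325 for Gstt2 and -0.70 to 0.37 for Gstp2. At 0.3 mg/kg-day they ran from -0.0588 to 1.09 for Gsta1, -0.16 to 0.10 for Gsta3, -0.26 to 0.0675 for Gsta4, -0.24 to 0.0544 for Gstt1, -0.10 to 0.12 for Gstt2 and -1.93 to 0.0481 for Gstp2. The ratio of Gsta3 to Gsta4 at 6.0 mg/kg-day ran from -0.13 to 0.0379 and that of Gstt1 to Gstt2 from -0.12 to 0.29. No paired analysis was run, because the groups share no replicate numbers. Whether the place by number within a group marks a block shared by the groups was not tested.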
